A study of Homo sapiens with 4 samples.

Results

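U2AF1 and its copy U2AF1L5, CBS and its copy CBSL, and U2AF2, the partner of U2AF1, were examined across 4 RNA-seq libraries, as 5 genes of the 58735 genes in the tables. The members were taken by gene name, and the set was chosen by its values in this same contrast: U2AF1 and CBSL were the 2 genes called higher in shNME7 by limma-voom, a linear-model test, on recovered fragments (2 of 15112 genes, 0.0132%), so their differences are given as a description and without a test. U2AF1L5 and CBS are the near-identical copies of these 2 genes, and U2AF2 was added as the partner. Because copies share reads, each copy is given with the sum of its pair. Whether reads that match both copies were counted is not stated, so a sum may leave such reads out.

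The 2 shNME7 libraries are from cells with an NME7 short hairpin RNA, and the 2 shCtrl libraries from cells with a control hairpin. All 4 are labelled Huh7, an established human hepatoma line. The labels give no time, dose or clone, name 1 hairpin label per group, and do not state if replicates are different cultures. The p-values therefore reflect the spread between these particular libraries, which may be technical. The comparison asks how transcript levels differ after knockdown of NME7. NME7 itself, which encodes a protein of the gamma-tubulin ring complex, stood at 0.835 and 0.626 FPKM (fragments scaled to exon length and to library size) in shNME7 1 and 2, against 3.64 and 3.93 FPKM in shCtrl 1 and 2.

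The libraries held 14877906 to 16991397 fragments, and no 2 of them agreed within sampling noise (chi-square per degree of freedom 14.0 to 44.1). Defining liver markers were at or near 0. All 10 hepatocyte markers examined stayed under 0.1 FPKM in every library, and their summed level was 0.0858 to 0.110 FPKM in shNME7 and 0.0564 to 0.106 FPKM in shCtrl. APOA1, APOB, FGB and GPC3 had 0 fragments in all 4 libraries, where a count of 0 allows up to 3 fragments or 0.177 to 0.202 CPM. ALB, the albumin gene, had 1 fragment in shNME7 2 and 0 elsewhere, and AFP, the alpha-fetoprotein gene, had 1 fragment in shCtrl 2 and 0 elsewhere. Albumin and alpha-fetoprotein transcripts are known to be abundant in Huh7, so the levels go against the label, and the groups are called by their hairpins below. Of the fibroblast markers, COL3A1 stood at 75.1 and 76.6 FPKM in shNME7 and at 75.8 and 66.9 FPKM in shCtrl. The 5 fibroblast markers summed to 95.6 to 97.5 FPKM in shNME7 and 90.7 to 101 FPKM in shCtrl, with DCN under 0.1 FPKM throughout and COL1A2 at 0 fragments in all but shCtrl 1, which had 2. The leukocyte markers PTPRC, CD3E, CD14 and LYZ summed to at most 0.2497 FPKM in any library, with PTPRC, CD3E and LYZ at 0 fragments. The 4 endothelial markers summed to 2.81 and 3.47 FPKM in shNME7 and to 2.29 and 1.94 FPKM in shCtrl, with KDR at 0 fragments, and the part of any other cell type in the differences below was not tested.

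U2AF1 encodes the small subunit and U2AF2 the large subunit of the U2 auxiliary factor, a heterodimer of the spliceosome. U2AF2 binds the pyrimidine-rich tract before the end of an intron, and U2AF1 contacts the AG dinucleotide at the intron's last bases, after which the U2 small nuclear ribonucleoprotein is recruited. CBS encodes cystathionine beta-synthase, which condenses homocysteine with serine and so opens the transsulfuration route from methionine to cysteine, a route known to be active in liver. CBSL and U2AF1L5 lie side by side on the short arm of chromosome 21 in the GRCh38 assembly, as CBS and U2AF1 do on its long arm. The short-arm copies are known as regions that the assembly repeats, and RefSeq's gene table lists CBSL as a synonym of CBS. The same table also holds separate entries at the short-arm loci, LOC102724560 (synonyms CBS and CBSL) and LOC102724594 (synonym U2AF1L5).

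On GRCh38, GENCODE release 29 places U2AF1 (ENSG00000160201) at 43092956 to 43107587 and CBS (ENSG00000160200) at 43053191 to 43076943 on the minus strand of chromosome 21. U2AF1L5 (ENSG00000275895) lies at 6484623 to 6499261 and CBSL (ENSG00000274276) at 6444869 to 6468040, also on the minus strand. U2AF2 (ENSG00000063244) lies at 55654146 to 55674715 on the plus strand of chromosome 19. U2AF1 and U2AF1L5 were identical at 11096 of 11108 aligned exonic bases (99.9%), with 12 substitutions and 3 stretches of extra bases in the copy. None of the 12 substitutions fell in coding sequence. They comprised 3 in untranslated parts of coding transcripts and 9 in sequence found only in retained-intron or other non-coding transcripts, and all 3 coding sequences annotated for U2AF1, the longest of 720 bases, were also annotated letter for letter in U2AF1L5.

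CBS and CBSL were identical at 3923 of 3928 aligned exonic bases (99.9%), with 5 substitutions. Another 2858 exonic bases of CBS had no annotated counterpart in CBSL. Of the 5 substitutions, 2 lay in coding sequence of CBS, and 1 of these was coding in both genes. Of the 5 coding sequences annotated for CBS and the 2 for CBSL, 0 were the same letter for letter in both. The sequences below are windows around single differences, shown because a read over such a base can be assigned to 1 annotated copy. Whether both loci are transcribed in these cells was not tested. The capital at position 21, counted from 1 at the 5′ end on the transcribed strand, is the base that differs. The CBS and CBSL windows cover the substitution C21T in coding sequence, at chr21:43065220-43065260 in CBS and chr21:6456898-6456938 in CBSL.
CBS: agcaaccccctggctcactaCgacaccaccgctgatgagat
CBSL: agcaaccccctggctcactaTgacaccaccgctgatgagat
The next windows cover C21T in sequence annotated only in retained-intron or other non-coding transcripts, at chr21:43103876-43103916 in U2AF1 and chr21:6495554-6495594 in U2AF1L5.
U2AF1: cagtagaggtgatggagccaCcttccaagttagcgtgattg
U2AF1L5: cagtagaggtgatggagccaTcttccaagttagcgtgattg
The last windows cover A21G in sequence of the same class, at chr21:43095216-43095256 in U2AF1 and chr21:6486885-6486925 in U2AF1L5.
U2AF1: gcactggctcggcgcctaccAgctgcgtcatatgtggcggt
U2AF1L5: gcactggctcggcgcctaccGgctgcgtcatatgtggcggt

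**Figure D1:**
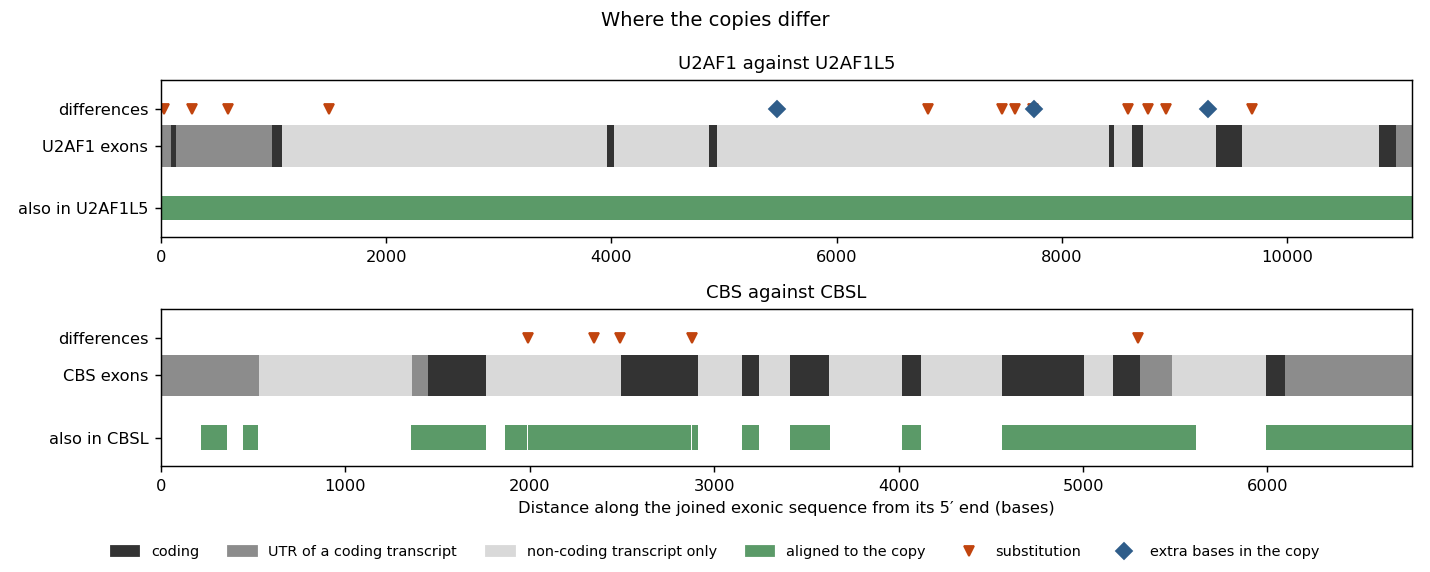
Differences between the copies along the joined annotated exonic bases of U2AF1 (upper panel, 11112 bases) and CBS (lower panel, 6786 bases), in bases from the 5′ end; triangles are substitutions, diamonds extra bases in the copy, grey shades mark coding, untranslated and non-coding-only sequence, and green marks bases aligned to the copy's annotated exons. The 12 substitutions of the U2AF1 pair all lie outside the black coding blocks, whereas 2 of the 5 in the CBS pair lie inside them.

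The few differences leave little sequence by which a read can be assigned. Of all 100-base windows of annotated U2AF1 transcripts, 89.4% also occurred in U2AF1L5, and 10.6% occurred in no other annotated gene. For U2AF1L5 the share in no other gene was also 10.6%. It was 16.5% for CBSL, 49.7% for CBS and 100% for U2AF2. The share for CBS counts exons that are annotated in CBS alone, so it is an upper limit where the same bases lie unannotated at the CBSL locus. In protein-coding transcripts alone, 96.5% of CBSL windows occurred in CBS and 88.4% of U2AF1 windows occurred in U2AF1L5. With 50-base and 150-base windows the share found in no other gene was 5.67% and 14.9% for U2AF1. The read length and the authors' handling of reads that match both copies are not stated in the labels or headers.

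**Figure D2:**
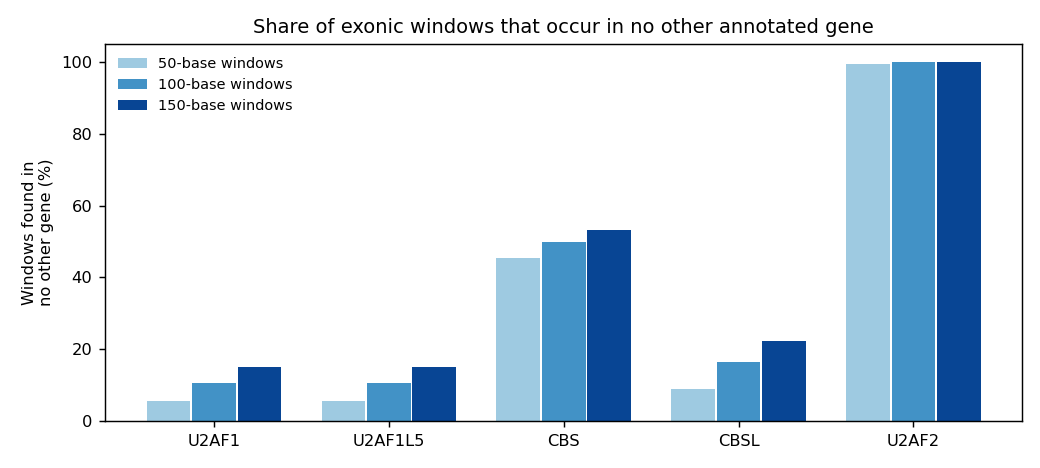
Share of the exonic windows of each gene, in percent, that occur in no other gene annotated in GENCODE release 29, for windows of 50, 100 and 150 bases. U2AF1 and U2AF1L5 lie between 5.66% and 14.9%, CBSL between 9.03% and 22.3%, CBS between 45.5% and 53.1%, and U2AF2 at 99.5% to 100%.

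The U2AF1 pair stood higher in both shNME7 libraries, and most of the difference in fragments was counted on the long-arm gene. U2AF1 had 333 and 250 fragments in shNME7 1 and 2, against 62 and 78 in shCtrl 1 and 2. In FPKM this was 1.99 and 1.32 in shNME7, against 0.351 and 0.435 in shCtrl. The groups did not overlap, shNME7 being higher, which held for 17.8% of tested genes, a share from which nothing is read here because the choice of the gene used this contrast. The mean was 1.66 ± 0.473 FPKM in shNME7 and 0.393 ± 0.0598 FPKM in shCtrl (SD, n = 2 each), 4.22-fold higher in shNME7. The log2 difference was 0.92 (SE 0.22) in limma-trend, the linear-model test on log2(FPKM + 1), and 2.04 (SE 0.29) in limma-voom. The log2(FPKM + 1) scale understates changes of low genes. In bulk RNA, fewer cells of a type and less RNA per cell cannot be told apart.

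U2AF1L5 had 83 and 99 fragments in shNME7 1 and 2, against 49 and 75 in shCtrl 1 and 2. These were 0.497 and 0.524 FPKM in shNME7 and 0.277 and 0.418 FPKM in shCtrl, so the groups did not overlap, though shNME7 1 and shCtrl 2 lay close to each other. Among genes averaging 10 fragments or more, 18.3% had both shNME7 libraries above both shCtrl libraries. The means were 0.510 ± 0.0195 and 0.348 ± 0.0999 FPKM in shNME7 and shCtrl (SD, n = 2 each), 1.47-fold higher in shNME7. With a mean of 0.429 FPKM over the 4 libraries, U2AF1L5 did not reach the 1 FPKM asked of tested genes. The other 4 members passed, U2AF1 at 1.03 FPKM and CBSL at 1.41 FPKM, and both of these would have failed on their shCtrl levels alone.

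Summed, the U2AF1 pair had 416 and 349 fragments in shNME7 and 111 and 153 fragments in shCtrl. The summed level was 2.49 and 1.85 FPKM in shNME7 libraries against 0.628 and 0.853 FPKM in shCtrl libraries, a mean 2.93-fold higher in shNME7. The share of U2AF1 within the pair also differed between the libraries of the groups. It was 80.0% (95% exact binomial interval 75.9 to 83.8) and 71.6% (66.6 to 76.3) in shNME7 1 and 2, against 55.9% (46.1 to 65.3) and 51.0% (42.8 to 59.1) in shCtrl 1 and 2, and the intervals cover counting error only. The 2 copies were near equal in shCtrl, and U2AF1 held the larger share in shNME7. Nothing is read from the higher sum or the larger share, because U2AF1 was chosen by this contrast.

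**Figure D3:**
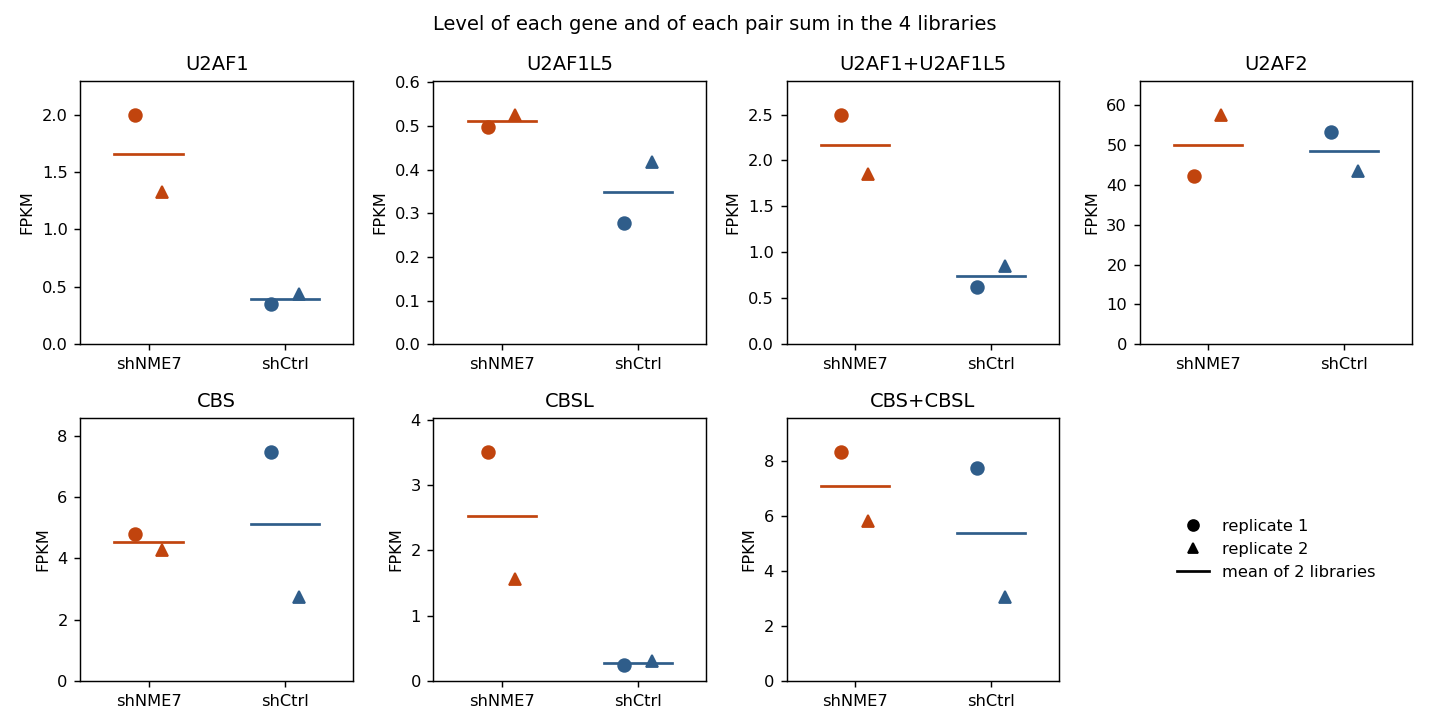
Level in FPKM of U2AF1, U2AF1L5, their sum, U2AF2, CBS, CBSL and their sum in shNME7 (red) and shCtrl (blue); circles are replicates 1, triangles replicates 2 and lines the mean of 2 libraries. U2AF1 and CBSL lie at 1.32 FPKM or more in shNME7 and at 0.435 FPKM or less in shCtrl, whereas U2AF2, CBS and the CBS pair sum overlap between the groups.

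U2AF2, unlike U2AF1, overlapped between the groups. It stood at 42.3 and 57.4 FPKM in shNME7 1 and 2 and at 53.3 and 43.5 FPKM in shCtrl 1 and 2, so shNME7 2 and shCtrl 1 were high and shNME7 1 and shCtrl 2 were low. The means were 49.9 ± 10.7 FPKM in shNME7 and 48.4 ± 6.91 FPKM in shCtrl (SD, n = 2 each). On the log2 scale it differed by 0.034 (SE 0.20) and did not pass 0.05 (Benjamini-Hochberg adjusted p 0.973 by limma-trend and 0.972 by limma-voom). Its sign turned to -0.11 without shCtrl 2, to -0.18 without shNME7 2 and to -0.10 with the trend on GC content and exon length removed from each library. The GC content of U2AF2 transcripts is 61.3%, and across 12857 tested genes the difference between the groups went with GC content (Spearman rho 0.42, over genes that share the same 4 libraries). GC content is 59.9% for CBS, 59.1% for CBSL and 45.9% for U2AF1.

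Per length of annotated exon, the summed U2AF1 pair reached 5.88% and 3.22% of the U2AF2 level in shNME7 1 and 2, and 1.18% and 1.96% in shCtrl 1 and 2. U2AF2 lay above 96.1% of protein-coding genes in mean FPKM, and U2AF1 above 47.3%. FPKM depends on the length used. The annotated exons of U2AF1 add up to 11112 bases, whereas its longest protein-coding transcript has 1675 bases. For U2AF2 these lengths were 4115 and 3022 bases. The part of exon length and of reads shared by the copies in the gap between U2AF1 and U2AF2 was not tested.

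In the CBS pair, more fragments were counted on the short-arm copy in shNME7, whereas those counted on the long-arm gene overlapped between the groups. CBSL had 211 and 106 fragments in shNME7 1 and 2, against 16 and 20 in shCtrl 1 and 2. These were 3.51 and 1.56 FPKM in shNME7 and 0.251 and 0.310 FPKM in shCtrl, so shNME7 1 was the highest library by far and the groups did not overlap. That held with shNME7 above for 17.8% of tested genes, and nothing is read from it because CBSL was chosen by this contrast. The means were 2.53 ± 1.38 FPKM in shNME7 and 0.280 ± 0.0414 FPKM in shCtrl (SD, n = 2 each), 9.03-fold higher in shNME7. The log2 difference was 1.41 (SE 0.29) in limma-trend and 3.01 (SE 0.50) in limma-voom.

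CBS had 490 and 491 fragments in shNME7 1 and 2, and 806 and 301 fragments in shCtrl 1 and 2. Its level was 4.80 and 4.26 FPKM in shNME7 and 7.46 and 2.75 FPKM in shCtrl, so both shNME7 libraries lay between the 2 shCtrl libraries, which were the extremes. The log2 difference was -0.028 (SE 0.36) in limma-trend. Without shCtrl 1 it was 0.56, and without shCtrl 2 it was -0.62, so its direction rested on which shCtrl library was kept.

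Summed, the CBS pair had 701 and 597 fragments in shNME7 and 822 and 321 in shCtrl, which overlapped. In FPKM the pair stood at 8.31 and 5.82 in shNME7 and at 7.72 and 3.06 in shCtrl, with means of 7.06 ± 1.76 and 5.39 ± 3.29 FPKM in shNME7 and shCtrl (SD, n = 2 each). The log2 difference of the sum was 0.42 (SE 0.36), which became 0.97 without shCtrl 1 and -0.13 without shCtrl 2. In limma-voom on summed fragments it was 0.33 (SE 0.31). FPKM divides by 6786 exonic bases for CBS and 4004 for CBSL, so a fragment counted on CBSL adds more to the summed FPKM. By summed FPKM the highest library was shNME7 1, and by summed fragments it was shCtrl 1. The share of CBSL within the pair was 30.1% (95% exact binomial interval 26.7 to 33.6) and 17.8% (14.8 to 21.1) in shNME7 1 and 2, against 1.95% (1.12 to 3.14) and 6.23% (3.85 to 9.46) in shCtrl 1 and 2. The short-arm share was higher in shNME7 for CBSL and lower in shNME7 for U2AF1L5. Nothing is read from these opposite directions, because CBSL and U2AF1 were chosen for being higher in shNME7.

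Among the other genes of chromosome 21 with a short-arm copy in the assembly, the split of SIK1 and SIK1B varied between libraries of the same group. SIK1, a kinase gene, had 1936 and 1743 fragments in shNME7 1 and 2 and 2160 and 2198 in shCtrl 1 and 2. Its copy SIK1B had 29 and 228 fragments in shNME7 1 and 2, and 457 and 34 in shCtrl 1 and 2. The SIK1B share was 1.48% and 11.6% in shNME7 1 and 2, against 17.5% and 1.52% in shCtrl 1 and 2, so 1 library of each group was high and 1 was low.

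GATD3A had 274 and 390 fragments in shNME7 1 and 2, and 268 and 210 in shCtrl 1 and 2. The share of its copy GATD3B was 21.3% and 33.6% in shNME7 1 and 2 and 30.6% and 31.1% in shCtrl 1 and 2, which overlapped. SMIM11A and SMIM11B together had 27 and 18 fragments in shNME7 and 20 and 18 in shCtrl, too few to compare shares. KCNE1 had 0 and 1 fragments in shNME7 and 3 in each shCtrl library with 0 for KCNE1B, FAM243A had 1 fragment in shCtrl 2 with 0 for FAM243B, and CRYAA and CRYAA2 had 0 in all 4 libraries.

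**Figure D4:**
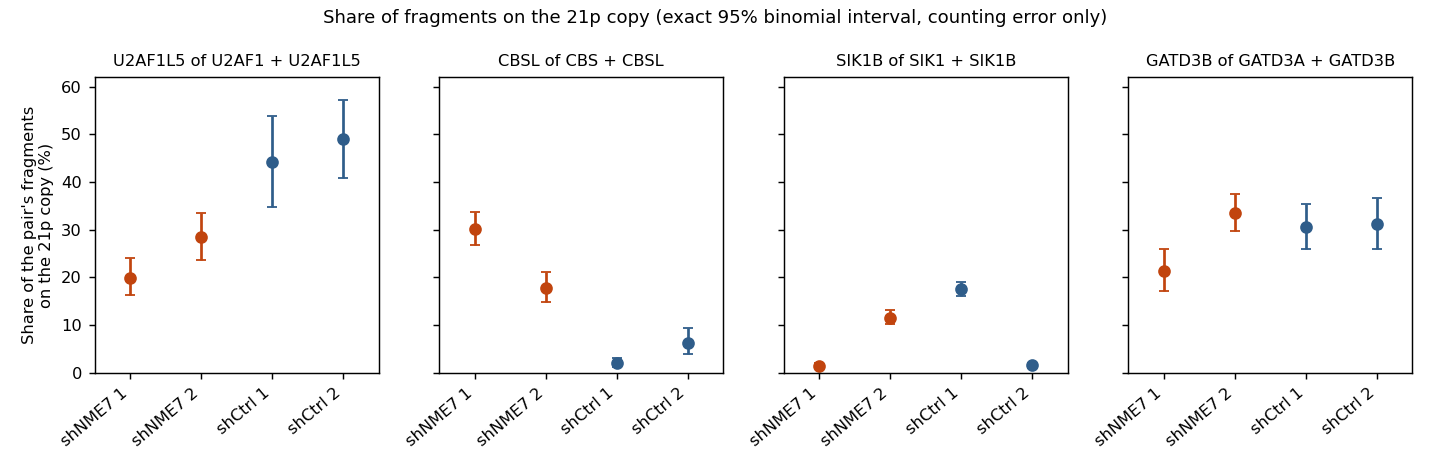
Share of the fragments of each copied pair that were counted on the short-arm copy, in percent, in shNME7 1 and 2 (red) and shCtrl 1 and 2 (blue), with exact 95% binomial intervals for counting error. The share lies at 19.95% and 28.4% in shNME7 and 44.1% and 49.0% in shCtrl for U2AF1L5, is higher in shNME7 for CBSL, and splits the libraries within each group for SIK1B. Because U2AF1 and CBSL were chosen by this contrast, nothing is read from the direction of the shares in their pairs.

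Other factors that act at the 3′ splice site were as often higher as lower. Of 29 listed genes 28 entered limma-trend, which put 14 above and 14 below 0. Neither limma-trend nor limma-voom called any (0 each). Over all genes limma-trend called 0 of 12866 (0%, with 859 at an unadjusted p under 0.05), and limma-voom called 16 of 15112 (0.106%). NME7, the targeted gene, did not pass in limma-trend (adjusted p 0.310) but passed in limma-voom (adjusted p 0.000998). A gene that limma-trend did not call may therefore still differ. In both tools 1 member, SRSF1, had an unadjusted p under 0.05. The median log2 difference of the list was -0.0031, beside 0.012 over all tested genes. The groups did not overlap for 3 members with shNME7 above and for 6 with shNME7 below, where the shares over all tested genes were 17.8% and 18.4%.

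SRSF1, a serine and arginine rich splicing factor, stood at 22.3 and 19.97 FPKM in shNME7 and at 26.5 and 31.8 FPKM in shCtrl. Both shNME7 libraries were lower, but the log2 difference of -0.44 (SE 0.15) did not pass (limma-trend adjusted p 0.728). SF3B5, a subunit of the SF3B complex of the U2 particle, stood at 82.9 and 109 FPKM in shNME7 and at 85.3 and 63.7 FPKM in shCtrl, which overlapped (log2 difference 0.36, SE 0.21, limma-trend adjusted p 0.795). Its difference was 0.56 without shNME7 1, 0.17 without shNME7 2, 0.57 without shCtrl 1, 0.15 without shCtrl 2 and 0.20 with the GC and length trend removed. The relatives of the members were named after their values were seen. ZRSR2, the U2AF1-related factor of the minor spliceosome, stood at 7.88 and 4.65 FPKM in shNME7 and 5.78 and 5.76 FPKM in shCtrl. U2AF1L4, another U2AF1 paralog, was below the filter at 1.16 and 0.737 FPKM in shNME7 and 0.525 and 0.992 FPKM in shCtrl. For both genes the libraries of the groups overlapped.

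The genes listed for the methionine cycle and transsulfuration, which include genes of glutathione synthesis and other linked steps, were also divided in direction. Of 24 listed genes 19 passed the filter, 9 with a positive and 10 with a negative difference, and 0 were called by limma-trend or limma-voom. In both tools 1 of them, GCLM, had an unadjusted p under 0.05. The median log2 difference was -0.0068. Groups did not overlap for 2 members above and 3 below, where the shares over all tested genes were 17.8% and 18.4%. PEMT, which methylates phosphatidylethanolamine, stood at 20.3 and 27.5 FPKM in shNME7 and 19.6 and 16.7 FPKM in shCtrl (log2 difference 0.37, SE 0.19, limma-trend adjusted p 0.795). That difference was 0.58 without shNME7 1, and 0.16 both without shNME7 2 and with the GC and length trend removed. GCLM, the modifier subunit of the enzyme that opens glutathione synthesis, stood at 5.72 and 5.06 FPKM in shNME7 and 7.01 and 7.55 FPKM in shCtrl (log2 difference -0.38, SE 0.14, limma-trend adjusted p 0.730).

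CTH, whose enzyme takes the product of CBS on to cysteine, was named after its values were seen. It stood at 56.0 and 39.9 FPKM in shNME7 and 50.5 and 48.2 FPKM in shCtrl, with both shCtrl libraries between the 2 shNME7 libraries. Per length of annotated exon it lay above the summed CBS pair in every library. The genes MAT1A, BHMT, BHMT2 and CDO1, known for their activity in liver, had 0 fragments in all 4 libraries. MAT2A, the methionine adenosyltransferase gene known from tissues other than adult liver and also named after its values were seen, stood at 139 and 112 FPKM in shNME7 and 119 and 135 FPKM in shCtrl.

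None of the genes around CBS and U2AF1 on the long arm passed limma-voom or limma-trend, which called no tested gene at all. All 6 protein-coding neighbours within 500 kb that have no copy were tested, 1 higher and 5 lower in shNME7, and 0 were called by limma-trend or limma-voom, with 0 at an unadjusted p under 0.05 in both. WDR4, a subunit of a tRNA methyltransferase, stood at 11.9 and 19.4 FPKM in shNME7 and 13.7 and 11.1 FPKM in shCtrl, and its log2 difference of 0.28 (SE 0.24, limma-trend adjusted p 0.838) became -0.048 without shNME7 2. NDUFV3, a subunit of respiratory complex I, stood at 6.39 and 7.31 FPKM in shNME7 and 7.59 and 6.24 FPKM in shCtrl, and its log2 difference of -0.0094 (SE 0.15, limma-trend adjusted p 0.993) changed sign in 3 alternatives, at 0.11 without shCtrl 1, 0.076 without shNME7 1 and 0.014 with the GC and length trend removed. The groups did not overlap for 1 of the 6, HSF2BP, named after its values were seen, with 0.802 and 0.833 FPKM in shNME7 below 1.84 and 1.10 FPKM in shCtrl (18.4% of tested genes lay below in this way).

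**Figure D5:**
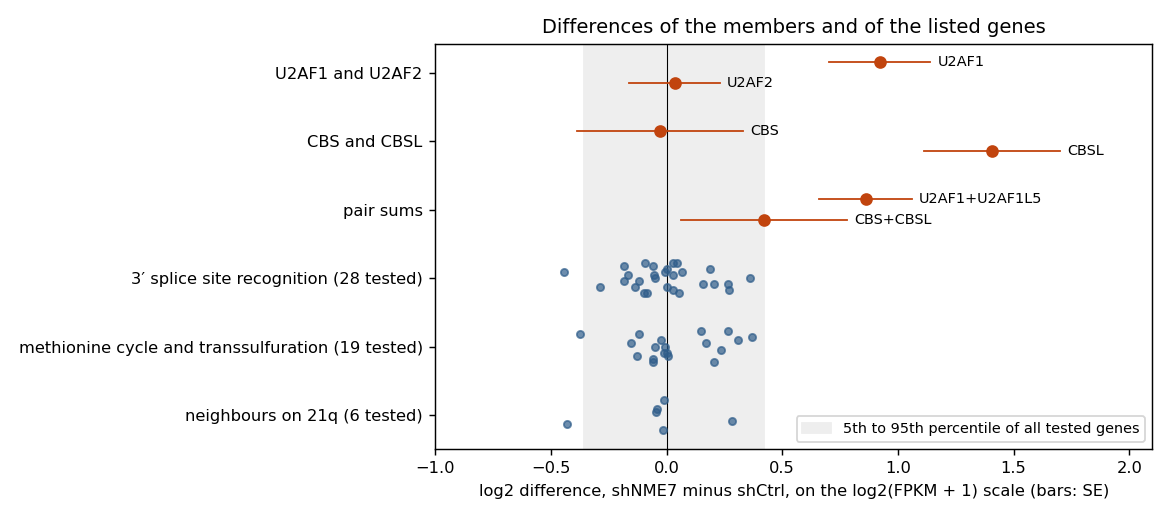
Log2 difference, shNME7 minus shCtrl, on the log2(FPKM + 1) scale for U2AF1, U2AF2, CBS, CBSL and the pair sums (red, bars are SE) and for each tested gene of the 3 lists (blue); the grey band spans the 5th to 95th percentile of 12866 tested genes, -0.36 to 0.42. U2AF1, CBSL and the U2AF1 pair sum lie right of the band, the CBS pair sum at its edge, and U2AF2 and CBS near 0. Because U2AF1 and CBSL were chosen by this contrast, nothing is read from their place, or that of the sums holding them, against the band.

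Across the 4 libraries, the tested genes whose centred log2(FPKM + 1) profiles lay nearest to the summed U2AF1 pair were the pseudogene AL353807.4 and the unconfirmed transcripts AC115618.3 and AC120057.4, at Euclidean distances of 0.14, 0.15 and 0.16. AL353807.4 stood at 5.44 and 4.58 FPKM in shNME7 and 2.45 and 2.65 FPKM in shCtrl. For the summed CBS pair the nearest were RNU6-705P, AC005829.1 and AL035446.1, at 0.17, 0.19 and 0.20. For U2AF2 they were TEX264, BAHCC1 and RAB34, at 0.0071, 0.022 and 0.025. TEX264 stood at 4.66 and 6.65 FPKM in shNME7 and 6.05 and 4.82 FPKM in shCtrl, high and low in the same libraries as U2AF2. Of the 12866 tested genes, 175 lay within a distance of 0.5 of the U2AF1 pair, 57 of the CBS pair and 7372 of U2AF2.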

How the data were processed

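The authors deposited FPKM values of 58735 genes, 1 file a library, per the file headers. HISAT2 2.0.5 and the build hg18 are listed in the submitters' processing notes. No counting tool or annotation is given in the sources used here. Each of the 58735 IDs, those of the short-arm copies included, occurs in GENCODE release 29 on GRCh38, not hg18, and names, lengths and coordinates are from it. Fragments were recovered as FPKM times exon length over the worth of 1 fragment, estimated in each library from its lowest value and refined over all values, and 100% of values above 0 came out whole (tolerance 0.01).

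The main test was limma-trend (limma 3.58.1, R 4.3.3) on log2(FPKM + 1) for the 12866 genes with a mean of at least 1 FPKM, two-sided, with Benjamini-Hochberg adjustment over all of them and a threshold of 0.05. limma-voom used the 15112 genes averaging 10 fragments or more. Pair sums were fitted in a table where the copies of 8 chromosome 21 pairs were added. Copies were compared in GENCODE transcript sequences, and exact binomial intervals are from SciPy 1.17.1. Of the leukocyte markers, 1 is not reported here.

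The members and lists were chosen with earlier results of these data known. Of each list, the rule named up to 4 members past the threshold, or else the 2 of largest absolute difference whose higher group averaged 5 FPKM or more; likeness of profiles named 3 genes each. Alternatives were a pseudocount of 0.1, no filter, a replicate block, leaving out libraries in turn, limma-voom, summed pairs, a loess correction for GC and length (span 0.3) and scaling to total fragments. Summed pairs in limma-voom and a crossed block were added after seeing the data.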

Additional observations from a re-analysis of the deposited data

How the results depend on the processing

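The U2AF1 pair sum stayed higher in shNME7 in 12 of 12 alternatives, with log2 differences from 0.71 to 1.54. A kept sign is no support here, because U2AF1 and CBSL were chosen by this contrast and the libraries of the groups did not overlap. The U2AF1 pair sum moved beyond the spread of its libraries to 1.43 with a pseudocount of 0.1 and to 1.54 in limma-voom with the pairs summed. U2AF1 ran from 0.74 to 2.04 and CBSL from 1.00 to 3.01 over 11 alternatives each. With the GC and length trend removed, U2AF1 was at 1.02 and its pair sum at 0.96. CBSL was then at 1.29, CBS at -0.125 and the CBS pair sum at 0.32. The CBS pair sum ran from -0.13 to 0.97 with libraries left out. U2AF2 reversed to -0.11 without shCtrl 2, -0.18 without shNME7 2 and -0.10 with the GC and length trend removed, and ran up to 0.25 without shNME7 1. WDR4 reversed to -0.048 without shNME7 2 and ran up to 0.61 without shNME7 1, and NDUFV3 to 0.11 without shCtrl 1, 0.076 without shNME7 1 and 0.014 after the GC and length correction.

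limma-trend called 0 of 12866 genes with all libraries and 859 had an unadjusted p under 0.05; it called 1 gene after the correction for GC and length, and 112 to 632 with a library left out (277 without shNME7 2, 632 without shNME7 1, 112 without shCtrl 2 and 133 without shCtrl 1), where the lone library is assumed to vary like the other group. By limma-voom 16 genes were called, and 13 with the pairs summed. With the replicate number as a block limma-trend called 122 genes. The labels do not say what the numbers share, and deviations of same-numbered libraries correlated at -0.35 over 12866 genes, so the numbers are not shown to pair the libraries. With the pairing crossed, limma-trend called 0. Of the genes in the 3 lists, 0 were called in any of 13 alternatives. The low fragment numbers of the copies, 16 to 333 for U2AF1, U2AF1L5 and CBSL, limit what can be told from their shares.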
